A study of Mus musculus with 2 samples.

Results

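The 7 miRNA genes known from neurons, Mir137, Mir128-1, Mir128-2, Mir138-1, Mir138-2, Mir129-1 and Mir129-2, were followed in embryonic mouse neural tube. They were picked by gene name, as 1 single-copy gene and 3 pairs of copies, and are 7 of the 1973 miRNA genes in the tables. All 7 were found with at least 10 sense-strand counts in each library, as were 363 genes in all. The samples form 1 group of 2 biological replicates of healthy B6NCrl embryos at 15.5 days, with males and females pooled and no treatment. Library 1 came from 78 embryos and library 2 from 62, so each value is an average over many animals and over every cell type of the dissected tissue. With a single group, the data give the level of each gene, the balance between the copies of a miRNA, and the difference between the pools. In whole tissue, fewer cells of a type and less RNA per cell cannot be told apart.

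A miRNA is cut from a hairpin in a longer primary transcript. Either side of the hairpin, the 5p arm or the 3p arm, can be loaded into an Argonaute protein and used to repress messenger RNAs. Target choice rests mainly on the seed, bases 2 to 8 of the mature arm, so copies of a gene that carry the same arm act on the same messages from different places in the genome. miR-137 is known for its part in neuronal differentiation and dendrite growth, and miR-128 for restraining the excitability of neurons in mice. miR-138 is known for limiting the size of dendritic spines in rat neurons, and miR-129 for binding the message of a potassium channel in mouse neurons.

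The mature arms are shown first because they decide which reads can tell the copies apart. RefSeq (build GRCm38.p6) lists 13 arms for the 7 genes, which are 10 different sequences of 21 to 23 bases with 9 different seeds. Capitals mark the seed, and arms that share a gene name are given together.
miR-137-5p: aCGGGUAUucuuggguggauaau
miR-137-3p: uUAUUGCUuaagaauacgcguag
miR-128-1-5p: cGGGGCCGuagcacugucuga
miR-128-2-5p: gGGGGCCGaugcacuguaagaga
miR-128-3p, in both copies: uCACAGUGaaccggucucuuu
miR-138-5p, in both copies: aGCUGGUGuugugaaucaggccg
miR-138-1-3p: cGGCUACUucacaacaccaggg
miR-138-2-3p: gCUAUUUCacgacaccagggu
miR-129-5p, in both copies: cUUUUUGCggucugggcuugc
miR-129-2-3p: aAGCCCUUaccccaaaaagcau

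Each pair of copies thus has 1 mature arm that is the same base for base, miR-128-3p, miR-138-5p or miR-129-5p. The 5p arms of Mir128-1 and Mir128-2 differ at 5 positions along their length but have the same seed. The 3p arms of Mir138-1 and Mir138-2 have different seeds as listed and start at different points of the matching stretch. Against the best matching stretch of Mir138-2, miR-138-1-3p differs by C7U and A13G, the first of them inside the seed, with positions counted from 1 at the 5′ end of the arm and its own base first. RefSeq lists no 3p arm for Mir129-1, but its hairpin holds a stretch that differs from miR-129-2-3p at 1 position, C20U by the same count. None of the 9 seeds was listed for a miRNA gene outside these families.

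The hairpins are shown to place the arms in their context. Capitals here mark every stretch of at least 18 bases that also occurs in another hairpin of the RefSeq table, which in each case was the other copy.
Mir137: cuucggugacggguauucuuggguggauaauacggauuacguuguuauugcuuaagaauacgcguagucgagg
Mir128-1: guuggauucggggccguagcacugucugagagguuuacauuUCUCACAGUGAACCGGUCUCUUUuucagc
Mir128-2: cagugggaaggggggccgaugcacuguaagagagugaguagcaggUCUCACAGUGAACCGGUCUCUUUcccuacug
Mir138-1: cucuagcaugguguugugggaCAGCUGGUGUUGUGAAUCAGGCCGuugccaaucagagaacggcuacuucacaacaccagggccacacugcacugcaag
Mir138-2: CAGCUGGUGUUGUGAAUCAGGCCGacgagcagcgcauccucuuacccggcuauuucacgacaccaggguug
Mir129-1: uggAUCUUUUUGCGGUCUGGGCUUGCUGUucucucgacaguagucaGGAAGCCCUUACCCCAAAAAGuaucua
Mir129-2: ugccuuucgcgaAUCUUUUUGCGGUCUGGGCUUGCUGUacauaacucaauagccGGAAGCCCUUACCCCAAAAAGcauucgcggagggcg

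The shared stretch is 23 bases long in the Mir128 pair and 24 in the Mir138 pair, against arms of 21 and 23 bases. The Mir129 pair shares 26 bases around miR-129-5p and 21 bases on the 3p side. Outside these stretches the hairpins have diverged. Over the whole aligned hairpins, with the shared stretches and the gaps included, identity was 71.4% for Mir128, 54.5% for Mir138 and 68.5% for Mir129. A sequence that lies wholly within the capitals occurs in both copies, and the tables assign reads that map to several places to no gene. Counts of the 6 copies therefore come from reads that leave the capitals or from the other arm, while no stretch of 18 bases of Mir137 was found in another hairpin. Only miRNA hairpins were compared, not the whole genome. In the RefSeq table, 143 of 1005 hairpins, or 14.2%, share such a stretch with another.

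**Figure D1:**
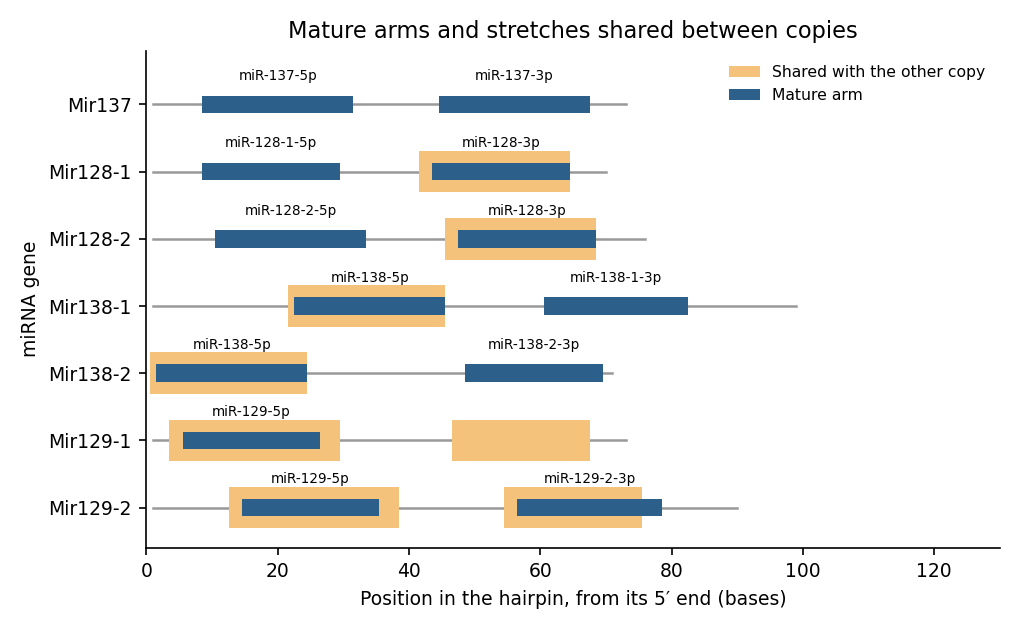
Position along each hairpin from its 5′ end, in bases, for the 7 miRNA genes. Blue boxes are mature arms listed by RefSeq and orange boxes are stretches of at least 18 bases also present in the other copy. In each pair 1 arm lies wholly inside an orange box, and Mir137 has none.

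The pool of reads set aside in this way was large beside the counts in hand. Multimapping reads numbered 2333818 in library 1 and 3480642 in library 2, or 29.4% and 29.7% of all reads. For each read counted in the 6 copies there were 147 such reads in library 1 and 154 in library 2. How many of them came from miR-128-3p, miR-138-5p or miR-129-5p was not tested, because the tables do not divide them by sequence. Counts are also per gene and not per arm. Levels of the 6 copies are thus those of the reads placed in a single copy, and can lie below the level of the miRNA.

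Depth and tissue markers set the frame for the levels. Sense-strand counts in miRNA genes totalled 4228685 in library 1 and 6039889 in library 2, and CPM here is a gene's share of that total. Multimapping reads are left out, so the sums below do not rank the cell types against each other. Genes of the neural tube were present, with summed levels of 13033 CPM in library 1 and 13935 CPM in library 2 for a neuron-enriched list, 2071 and 2353 CPM for the neural progenitor list, and 2095 and 2328 CPM for the oligodendrocyte list. Markers of other cell types were present too. The endothelial gene Mir126a had 22011 and 19666 CPM, the blood list 477 and 353 CPM (5 of 5 detected), and Mir122 of liver 66.0 and 56.3 CPM. The striated muscle list summed to 287 and 363 CPM, of which Mir206 alone gave 283 and 360 CPM. In that list 2 of 5 genes were detected, and 2 were at 0 in both libraries. Library 1 stood apart in markers of other tissues, with 5458 CPM against 631 CPM in library 2 for the epithelial list (7 of 7 genes detected). It also had 19290 CPM against 4459 CPM for smooth muscle and mesenchyme (4 of 5 detected), and 1286 CPM against 245 CPM for gut and endocrine cells (4 of 5 detected).

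Mir137 had the highest level of the 7 genes in reads placed in a single gene. It had 27972 counts in library 1 and 43608 counts in library 2, which is 6615 and 7220 CPM, with 95% exact Poisson intervals of 6538 to 6693 and 7152 to 7288. The mean was 6917 ± 428 CPM (SD, n = 2), and the gene stood at rank 22 of 1973. The next gene of the set was more than 5-fold lower. Of the counts in the 7 genes together, Mir137 held 63.8% in library 1 and 65.9% in library 2, with 95% Wilson intervals of 63.4 to 64.3 and 65.5 to 66.2. A read spans a whole mature arm, so CPM was not divided by length. The Mir128, Mir138 and Mir129 genes lack the reads that map to both copies, while no such shared stretch was found in Mir137. Comparisons of CPM between genes therefore cover only reads placed in a single gene, and do not rank the miRNAs themselves.

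The Mir128 genes came next. Mir128-1 had 5380 and 7716 counts, or 1272 CPM in library 1 and 1278 CPM in library 2, a mean of 1275 ± 3.71 CPM (SD, n = 2) at rank 75. Mir128-2 had 2784 and 4565 counts, or 658 CPM in library 1 and 756 CPM in library 2, a mean of 707 ± 68.9 CPM at rank 100. The level of Mir128-1 was nearly the same in both pools, whereas that of Mir128-2 was the more variable, with an SD of 9.75% of its mean, the widest of the 7 genes.

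The Mir138 genes lay between and below them. Mir138-1 had 4173 and 5623 counts, or 987 CPM in library 1 and 931 CPM in library 2, a mean of 959 ± 39.5 CPM at rank 87. Mir138-2 had 2414 and 3252 counts, or 571 CPM in library 1 and 538 CPM in library 2, a mean of 555 ± 22.9 CPM at rank 110. Both copies were slightly higher in library 1.

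The Mir129 genes were the lowest. Mir129-1 had 406 and 523 counts, or 96.0 CPM in library 1 and 86.6 CPM in library 2, a mean of 91.3 ± 6.66 CPM at rank 205. Mir129-2 had 696 and 914 counts, or 165 CPM in library 1 and 151 CPM in library 2, a mean of 158 ± 9.38 CPM at rank 171. Mir129-1 was the single gene of the 7 below the median of the detected genes, 136 CPM. From high to low the order was Mir137, Mir128-1, Mir138-1, Mir128-2, Mir138-2, Mir129-2 and Mir129-1, and the range over both libraries overlapped for no pair of neighbours in it. The smallest step was between Mir128-2 and Mir138-2, a ratio of mean CPM of 1.27.

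**Figure D2:**
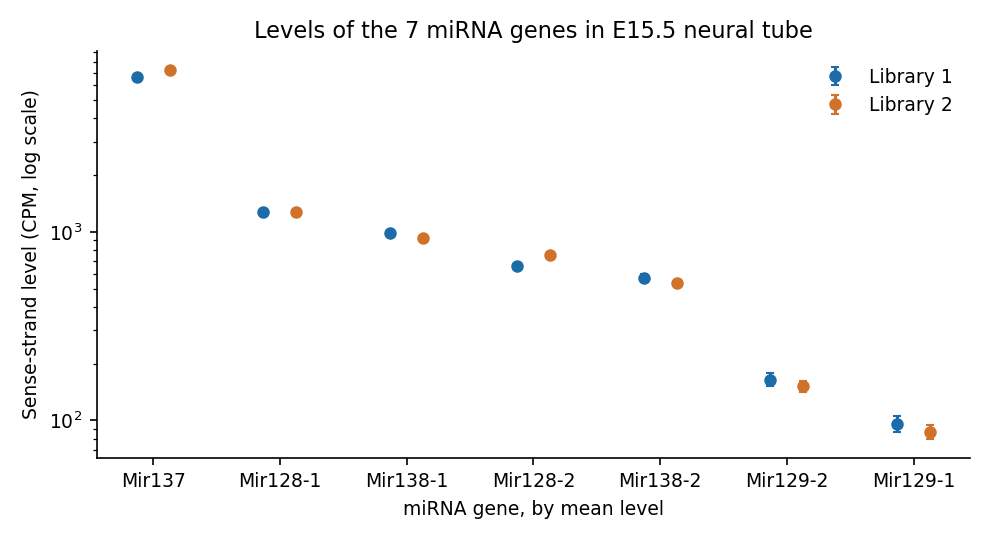
Sense-strand level of each miRNA gene in CPM on a log scale, ordered by mean level, with library 1 in blue left of library 2 in orange. Bars are 95% exact Poisson intervals and are smaller than the points for most genes. Mir137 stands alone between 6615 and 7220 CPM, and the Mir129 genes lie lowest, between 86.6 and 165 CPM.

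The opposite strand of the hairpins gave no counts. All 7 genes had 0 antisense counts in both libraries, which at 3 counts allows each at most 0.709 CPM (library 1) or 0.497 CPM (library 2). The annotation places another miRNA gene, Mir129b, on the strand opposite Mir129-2, overlapping it on chromosome 2 at 94241378 to 94241442. Mir129b has no values of its own here. Any of its reads placed in a single position would lie on the antisense side of Mir129-2, which held 0 in library 1 and 0 in library 2. Its span covers both stretches that Mir129-2 shares with Mir129-1, and reads within those map to both copies and are left out. The 0 counts therefore do not show whether Mir129b gave reads.

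Between the copies, the balance was similar in size in the 3 families. Mir128-1 exceeded Mir128-2 by 1.93-fold in library 1 (95% exact counting interval 1.85 to 2.02) and by 1.69-fold in library 2 (1.63 to 1.75). Mir138-1 exceeded Mir138-2 by 1.73-fold in library 1 (1.64 to 1.82) and by 1.73-fold in library 2 (1.66 to 1.81). Mir129-1 stood at 0.583 times Mir129-2 in library 1 (0.515 to 0.660) and at 0.572 times in library 2 (0.513 to 0.638). Copy 1 was thus the more counted of the Mir128 and Mir138 pairs in both libraries and the less counted of the Mir129 pair, and no interval included equal counts. These ratios cover only reads placed in a single copy. Whether the copies of a pair differ in the part of their reads that can be placed was not tested.

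The share of copy 1 within a pair was also set side by side for the 2 libraries. Mir138-1 held 63.352% of the counts of its pair in library 1 and 63.358% in library 2, and Mir129-1 held 36.8% and 36.4%. Mir128-1 held 65.9% in library 1 and 62.8% in library 2. On the log2 scale the mean ratio of copy 1 to copy 2 was 0.85 ± 0.14 for Mir128, 0.79 ± 0.00025 for Mir138 and -0.79 ± 0.020 for Mir129 (SD, n = 2). With the copies as the only reads compared, these ratios do not depend on how the libraries are scaled.

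Whether the balance differed between the libraries was tested for every pair of numbered copies detected in the tables, 18 pairs in all, by Fisher's exact test on the counts, two-sided with Benjamini-Hochberg adjustment over the 18. This test was added after the data were seen, sets these libraries side by side, not conditions, and knows only counting error. It called 3 of the 18 pairs, or 16.7%, and Mir128 was among them (adjusted p = 6.74e-05), with a log2 ratio higher by 0.19 in library 1. Mir138 (adjusted p = 1) and Mir129 (adjusted p = 1) did not pass, with shifts of -0.00035 and 0.028 in the log2 ratio of library 1 minus library 2. The other pairs called were Mir92-1 with Mir92-2 and Mir181a-1 with Mir181a-2, named after their values were seen. Across the 18 pairs the size of the shift had a median of 0.10 and ran from 0.00035, the Mir138 pair, to 0.84. The size of the mean log2 copy ratio had a median of 1.06 and reached 6.55, so the copies of Mir128, Mir138 and Mir129 were nearer to equal than those of the median pair.

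**Figure D3:**
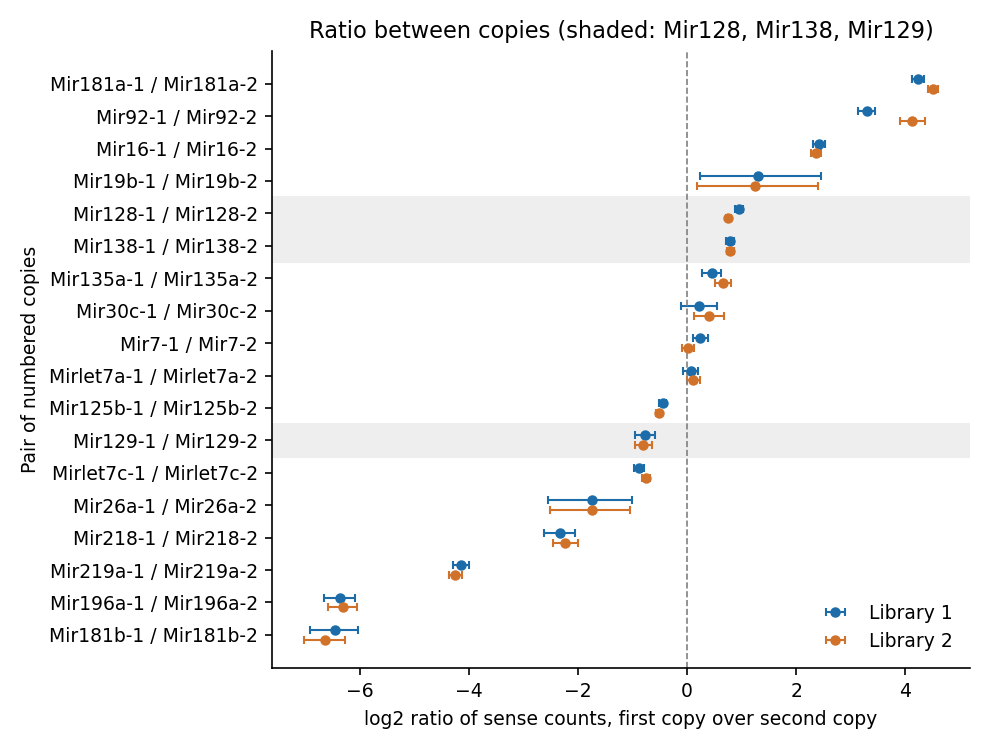
log2 ratio of sense counts between the first and the second copy for 18 pairs of numbered copies, with library 1 in blue above library 2 in orange and 95% exact counting intervals. The shaded pairs are Mir128, Mir138 and Mir129, whose mean log2 ratios are 0.85, 0.79 and -0.79. Library 1 and library 2 coincide for Mir138 and separate for Mir128.

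The copies sit in unlike hosts. Coordinates are on mm10, from the GENCODE M21 annotation, whose positions for the 7 hairpins equal those of RefSeq, and a host had to lie on the strand of the hairpin. Mir137 lies on chromosome 3 at 118433857 to 118433929, within the non-coding gene Gm26871, and overlaps an exon in each of the 3 transcripts of it that span the position. Mir128-1, on chromosome 1 at 128202361 to 128202430, sits in an intron of R3hdm1, a protein-coding gene of 134436 bases. Mir128-2, on chromosome 9 at 112118636 to 112118711 on the minus strand, sits in an intron of Arpp21, a protein-coding gene of 170848 bases that encodes a cAMP-regulated phosphoprotein of the brain. In both, no annotated exon of the host reached the hairpin, with 2 transcripts of R3hdm1 and 9 of Arpp21 spanning it.

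Mir138-1 lies on chromosome 9 at 122682876 to 122682974 and overlaps an exon of Gm47135, annotated as a transcribed pseudogene of 900 bases. Mir138-2 lies on chromosome 8 at 94324311 to 94324381 and overlaps an exon of the lincRNA C78859. Mir129-1 lies on chromosome 6 at 29022619 to 29022691 and overlaps an exon of the lincRNA Gm3294. Mir129-2, on chromosome 2 at 94241364 to 94241453 on the minus strand, sits in an intron of the lincRNA Mir670hg. The Mir128 pair is thus hosted by introns of protein-coding genes, and the other 5 genes by non-coding genes. In the Mir138 pair, where both copies overlap an exon, the copy in the lincRNA was the lower. In the Mir129 pair, where both hosts are lincRNAs, the copy in an exon was the lower. Any link between the kind of host and the level was not tested. The libraries were labelled as holding RNA under 30 nucleotides and the tables list miRNA genes only, so the level of the host transcripts was not measured here.

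Other miRNA genes in the same hosts, on the strand of the host, gave few reads. Mir670, which lies 19847 bases from Mir129-2 in Mir670hg, had 112 and 192 counts, or 26.5 CPM in library 1 and 31.8 CPM in library 2, below Mir129-2 in both. Gm23630, annotated as a miRNA in the same host, had 0 counts in both libraries. Gm24155, annotated as a miRNA 792 bases from Mir137 in Gm26871, had 0 counts in library 1 and 1 count in library 2. R3hdm1, Arpp21 and the hosts of Mir138-1, Mir138-2 and Mir129-1 held no other annotated miRNA gene on their own strand. The opposite strand of the hosts was not searched.

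Among the reads placed in a single gene of the neuron-enriched list, Mir137 alone made up about as many as all other genes of the list together. The neuron-enriched list named above, defined by the symbol stems Mir137, Mir128, Mir138, Mir129, Mir132, Mir212, Mir153, Mir218, Mir7 and Mir124a, has 20 members in the tables, of which 16 were detected. The 7 genes held 79.5% of the list's counts in library 1 and 78.7% in library 2, with 95% Wilson intervals of 79.2 to 79.9 and 78.4 to 78.9. Of this, Mir137 held 50.8% in library 1 and 51.8% in library 2, and the 6 copies held 28.8% and 26.8%. These shares leave out multimapping reads, in the 6 copies and in the other genes of the list, while Mir137 shared no stretch of 18 bases with another hairpin. The shares of the miRNAs themselves can therefore differ from these. Together the 7 genes reached 10364 CPM in library 1 and 10961 CPM in library 2, or 1.04% and 1.10% of all sense counts. The list was chosen with results of these data known, so the share is a description.

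Among the other 13 genes of the list, 9 were detected, and their levels interleaved with those of the Mir128, Mir138 and Mir129 genes. Mir132, an activity-dependent miRNA of neurons, reached 724 CPM in library 1, against 893 CPM in library 2. Mir153 had 687 and 721 CPM, close to Mir128-2, and Mir7b, known from the hypothalamus, had 607 and 628 CPM. These were the 3 genes of the list that stood between Mir138-1 and Mir138-2 beside Mir128-2. Mir7-1 and Mir7-2 lay from 174 to 221 CPM. Mir218-2, known from motor neurons, reached 143 CPM in library 1, against 150 CPM in library 2, close to Mir129-2, while Mir218-1 had 28.4 and 32.0 CPM. Mir7j and Mir212 lay from 40.9 to 61.3 CPM.

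The list's other 4 genes were not detected. Mir7k had 0 counts in library 1 and 1 in library 2. The Mir124a genes, copies of the best known neuronal miRNA, stood at 8 and 17 counts for Mir124a-1, 8 and 8 for Mir124a-2, and 2 and 5 for Mir124a-3. The single-copy gene Mir137 therefore stood far above the 3 Mir124a copies in the reads the tables place. Multimapping reads are left out, and how many of them came from the Mir124a copies was not tested. The low counts therefore do not give the level of the Mir124a miRNA in the tissue. Among genes of other neural lineages, Mir92b of neural progenitors reached 1700 CPM in library 1, against 1963 CPM in library 2, and Mir219a-2 of the oligodendrocyte lineage reached 1693 and 1935 CPM, both below Mir137 and above Mir128-1.

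**Figure D4:**
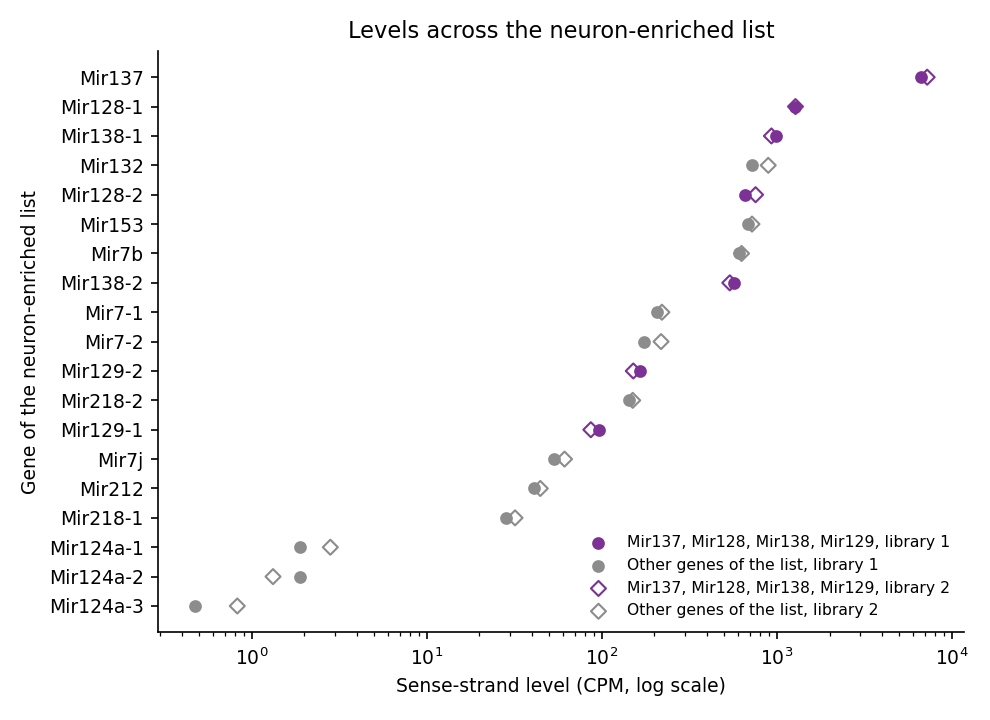
Sense-strand level in CPM on a log scale for 19 genes of the neuron-enriched list with counts in both libraries, ordered by mean level. Filled circles are library 1 and open diamonds library 2, with Mir137, Mir128, Mir138 and Mir129 genes in purple and the others in grey. Mir137 leads at 6615 and 7220 CPM, and the 3 Mir124a genes lie lowest.

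The miRNA genes nearest in level were found by the distance in log2(CPM + 1) over the 2 libraries, among detected genes outside the set. With only 2 libraries this measures level rather than pattern. The nearest genes to Mir137 were Mirlet7b (6998 and 6782 CPM) and Mir30a (7305 and 7836 CPM). Mir96 and Mir301 were nearest to Mir128-1, Mir153 and Mir187 to Mir128-2, Mir181b-2 and Mir154 to Mir138-1, Mir341 and Mir543 to Mir138-2, Mir488 and Mir592 to Mir129-1, and Mir181a-2 and Mir421 to Mir129-2. The distances ran from 0.023 for Mir181a-2 to 0.19 for Mir30a.

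The pools differed little in these 7 genes. An exact binomial test of each of the 363 detected genes, two-sided with Benjamini-Hochberg adjustment over all of them, compared the libraries after scaling by TMM (edgeR). The test sets these pools side by side, not conditions, and knows only counting error. Of all genes tested it called 49.9%, 25.6% as higher in library 1 and 24.2% as higher in library 2. Of the 7 genes it called Mir137 and Mir128-2, both lower in library 1, and 5 did not pass, which is 28.6% called against the 49.9% over all genes.

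The log2 ratio of library 1 to library 2 was -0.16 for Mir137 (95% exact counting interval -0.18 to -0.14; exact binomial test, adjusted p = 6.58e-47). For Mir128-2 it was -0.23 (-0.30 to -0.16; adjusted p = 5.98e-11 by the exact binomial test). For the others, the log2 ratio was -0.04 for Mir128-1 (-0.09 to 0.01), 0.05 for Mir138-1 (-0.01 to 0.11) and 0.05 for Mir138-2 (-0.03 to 0.13). It was 0.12 for Mir129-1 (-0.08 to 0.30) and 0.09 for Mir129-2 (-0.06 to 0.23), where lower counts leave the intervals widest. All 7 lay within 1.5-fold, as did all 9 other detected genes of the neuron-enriched list and 86.8% of all detected genes. The median log2 ratio of the 7 was 0.05, against -0.0036 over all 363 genes and -0.16 over those 9 genes. Of the 9, the binomial test called 4 as lower in library 1, and 5 did not pass.

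The binomial test leaves out the variation between pools. edgeR's exact test, given a biological coefficient of variation of 34.4% estimated from the same difference between 2 libraries, called 2.2% of the 363 genes, all higher in library 1. It called 0 of the 7 genes (adjusted p = 1 for each), with 0 at an unadjusted p under 0.05 and the lowest unadjusted p at 0.745. With 1 library on each side, log2 ratios of the size seen here could not pass that test, so this count says nothing on whether the pools were alike. Library 1, where Mir137 and Mir128-2 were lower by the binomial test, was the library with 8.66 times the epithelial list's level, and the part of those other cells in the difference was not tested.

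**Figure D5:**
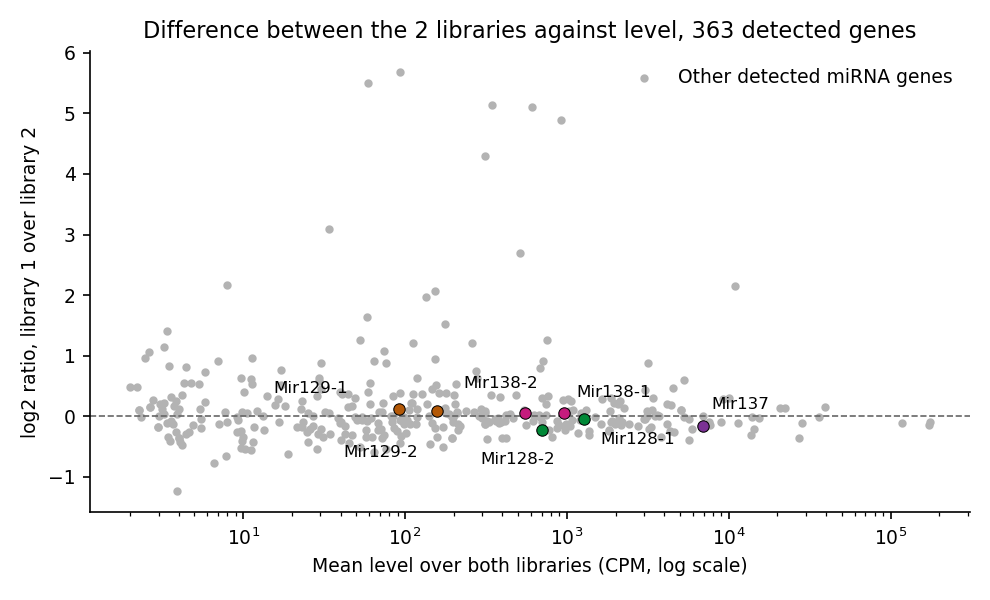
log2 ratio of library 1 over library 2, after TMM scaling, against mean level in CPM on a log scale for the 363 detected miRNA genes. The 7 named genes are drawn in colour by family and lie between -0.23 and 0.12, while grey points reach from -1.24 to 5.69.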

How the data were processed

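MicroRNA-seq libraries of neural tube were deposited as raw counts per miRNA gene, 1 table per library. They are gene quantifications on mm10 with GENCODE M4, per the README texts beside them. No aligner, counter or trimming step was named: not given in the sources used here. Column 3, taken as the sense strand for its larger total, summed to 4228685 counts in library 1 and 6039889 in library 2. The 4 entries that name no gene (45.7% and 47.7% of reads) were left out.

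Identifiers were matched without version to GENCODE M21 (1894 of 1973). Of the 7 genes, 3 matched with the version too. CPM used the sense total as library size. Scaling and tests used edgeR 4.0.16, DESeq2 1.42.0, R 4.3.3 and scipy 1.17.1, and were tested on simulated data. Intervals are at 95% and cover counting error only, since PCR reads without molecular identifiers are not independent molecules. A count of 0 was taken to allow 3 counts. Sequences are from RefSeq (GRCm38.p6), with all 7 genes matched.

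Genes and lists were chosen with earlier results of these data known. Named genes are the 7 genes, their hosts and miRNA genes in those hosts, the neuron-enriched list, Mir92b and Mir219a where levels are compared, and the 2 nearest genes in level. Outside this rule, Mir126a and Mir122 stand for marker lists of 1 gene. Mir206 and the other copy pairs called were named after their values were seen. Alternatives were other scalings, filters, strands, denominators, and each library alone.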

Additional observations from a re-analysis of the deposited data

How the results depend on the processing

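The copy ratios of the 3 pairs kept their direction with counts summed over the libraries and with each library alone. Counts from both strands could not change them, since the 7 genes had 0 antisense counts. With a single library, the log2 copy ratio ran from 0.76 to 0.95 for Mir128, from 0.790 to 0.790 for Mir138 and from -0.81 to -0.78 for Mir129, the share from 78.7% to 79.5%, and the level of the 7 genes together from 10364 to 10961 CPM.

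Levels depend on the denominator by construction. The 7 genes together had 10662 CPM as reported, 5584 CPM over all reads and 19995 CPM without the 3 most abundant genes in the denominator. The number of genes that differed between libraries was 181 by the binomial test, 168 to 188 with other scalings, filters or strands, and 8 by edgeR's exact test, where the pools' spread enters. By that test, which could not call ratios this small with 1 library a side, Mir137 and Mir128-2 were not called (adjusted p = 1 for both). Mir128-1 passed with no filter (log2 ratio -0.07, exact binomial test, adjusted p = 0.0223), and Mir138-1 with library sizes alone (0.08, exact binomial test, adjusted p = 0.0107), and the cause was not tested. No direction reversed among the 7 library ratios. The library ratio cannot be had with a library left out. No paired analysis was possible because there is a single group. Reads of arms shared by copies cannot be recovered from these counts, and 2 libraries give no outlier test.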
